A study of Arabidopsis thaliana with 12 samples.

Results

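PRK (AT1G32060), NTRC (AT2G41680) and PPDK (AT4G15530) encode 3 enzymes of the chloroplast stroma, and each had 1 array spot annotated to it alone. They are 3 of the 692 spots of the array that carry a single gene, out of 3439 spots in all. RNA was measured in the Arabidopsis thaliana toc34 mutant (6 arrays) and in wild type (WT, 6 arrays). Both genotypes are in the ecotype Columbia 0, which is all that the labels give as shared between them. According to the labels, the mutant is impaired in moving proteins across the outer envelope of the chloroplast, and TOC34 itself is a GTPase that receives precursor proteins there. The labels name no allele, tissue, plant age or growth condition, nor do they tie the arrays to separate plants. The spread between arrays may therefore be technical, and a labelled tissue could not be set against its markers.

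In the Calvin cycle, light-derived ATP and NADPH are used to fix carbon dioxide in the stroma. PRK, phosphoribulokinase, phosphorylates ribulose 5-phosphate to the carbon dioxide acceptor ribulose 1,5-bisphosphate and is switched on in the light by reduction of its disulfide bonds. NTRC, a thioredoxin reductase with a thioredoxin domain of its own, passes electrons from NADPH to stromal targets such as 2-Cys peroxiredoxins, and so can work also where ferredoxin is not reduced by light. PPDK, pyruvate orthophosphate dikinase, makes phosphoenolpyruvate from pyruvate. In C4 plants it regenerates the acceptor of the carbon pump, and in the C3 plant Arabidopsis its gene gives both a plastid and a cytosolic form. All 3 proteins are encoded in the nucleus, and their plastid forms are imported into the chloroplast.

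The values are spot intensities on the authors' own scale, taken here as linear, with a floor of 0 and a ceiling of 100. Summed intensity ran from 1988 to 3105 per toc34 array and from 2641 to 3553 per WT array. Arrays were most alike where their replicate numbers adjoin (1 and 2, 3 and 4, 5 and 6), with correlations across spots of 0.84 to 0.89 within toc34 and 0.94 to 0.96 within WT, against 0.78 to 0.81 and 0.89 to 0.92 for other arrays of these genotypes. The 12 arrays may thus hold repeats. No spot carried TOC34 or its paralog TOC33 alone, so neither gene was analysed here as a check of the labels.

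PRK and NTRC were lower in toc34 and PPDK was higher. These 3 genes were chosen with their values on these same arrays known, so their levels and differences are described and not tested. All 3 lay past the threshold of a limma adjusted p of 0.05 that was applied to every spot, 2 lower and 1 higher, and 36.0% of the 2768 spots tested did so, 18.9% lower and 17.2% higher. On normalized values the 6 toc34 arrays and the 6 WT arrays did not overlap for any of the 3, and 25.7% of the 2337 tested spots measured on all arrays showed no overlap, 13.1% with toc34 lower and 12.6% with toc34 higher. In total RNA, fewer cells of a type and less RNA per cell cannot be told apart.

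PRK had deposited intensities of 1.19, 1.32, 1.10, 1.12, 0.717 and 0.676 on toc34 replicates 1 to 6. On WT replicates 1 to 6 it had 1.74, 2.09, 3.47, 2.17, 2.44 and 2.66. The highest toc34 array, replicate 2, lay below the lowest WT array, replicate 1, and the brightest value of all was WT replicate 3. The mean was 1.02 ± 0.264 in toc34 and 2.43 ± 0.600 in WT (SD, n = 6 arrays each). After quantile normalization the log2 difference, toc34 minus WT, was -1.13 (SE 0.21), a 2.19-fold lower value in toc34. On this scale the genotypes were separated by a margin of only 0.12, between toc34 replicate 2 at 0.57 and WT replicate 4 at 0.69. Relative spread was alike in both genotypes, with a coefficient of variation of 25.8% in toc34 and 24.7% in WT.

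NTRC had intensities of 0.149, 0.166, 0.163, 0.158, 0.138 and 0.116 on toc34 replicates 1 to 6. The WT replicates had 0.596, 0.573, 0.487, 0.517, 0.355 and 0.384. Every toc34 array was low and the closest arrays, toc34 replicate 2 and WT replicate 5, still differed 2.14-fold. The mean was 0.148 ± 0.0188 in toc34 and 0.485 ± 0.0982 in WT (SD, n = 6 arrays each), and the normalized log2 difference was -1.57 (SE 0.17), or 2.97-fold lower in toc34. NTRC showed the widest margin of the 3 genes between the genotypes, 1.01 on the normalized log2 scale. Its toc34 values were dim but lay above 0.0216, the 5th percentile of all values above 0. The relative spread was 12.7% in toc34 and 20.2% in WT.

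PPDK had intensities of 0.436, 0.593, 0.842, 0.400, 0.317 and 0.297 on toc34 replicates 1 to 6. On the WT replicates it had 0.164, 0.199, 0.268, 0.270, 0.273 and 0.260. All toc34 arrays were above all WT arrays, but toc34 replicate 6 exceeded WT replicate 5 only 1.09-fold, whereas toc34 replicate 3 stood highest. The mean was 0.481 ± 0.206 in toc34 and 0.239 ± 0.0460 in WT (SD, n = 6 arrays each). The normalized log2 difference was 1.04 (SE 0.22), or 2.06-fold higher in toc34, with a margin of 0.16 between toc34 replicate 4 and WT replicate 5. On deposited intensities PPDK varied more among toc34 arrays than among WT arrays. Its coefficient of variation was 42.9% in toc34 and 19.3% in WT. Deposited intensities also carry the scale of each array. After normalization the contrast was smaller, with a log2 SD of 0.42 in toc34 and 0.30 in WT. A RefSeq gene table lists 7 transcripts for PPDK and 1 each for PRK and NTRC, and the single PPDK spot does not tell the plastid form from the cytosolic one.

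**Figure D1:**
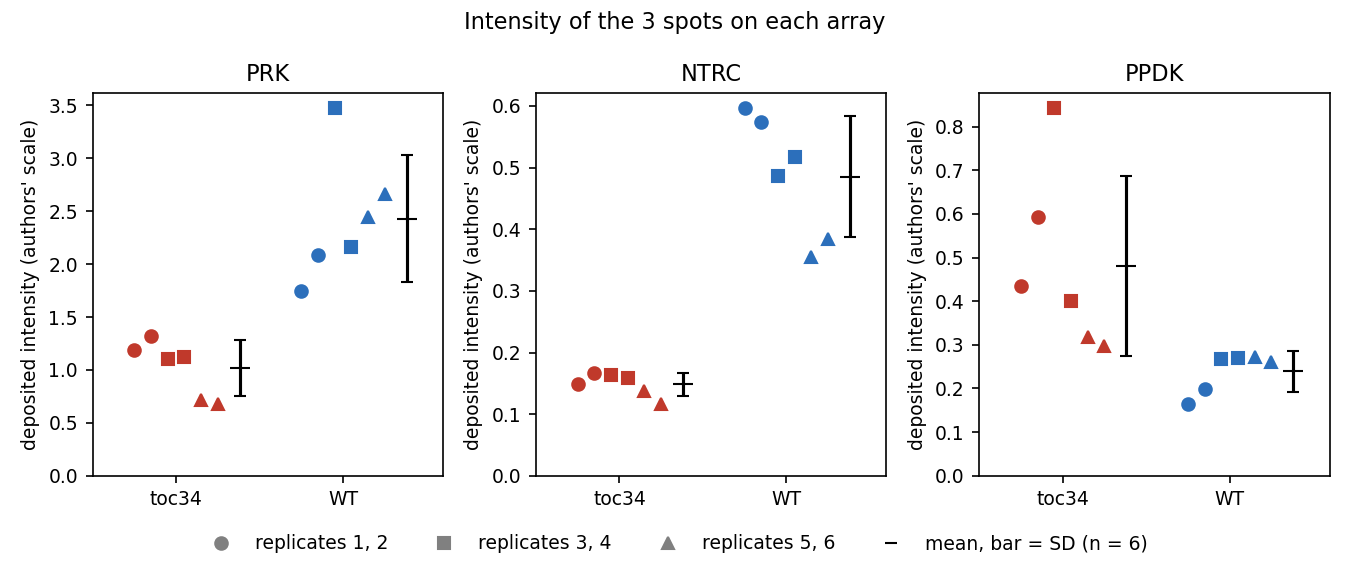
Deposited intensity (authors' scale, taken as linear, axis from 0) of the PRK, NTRC and PPDK spots on 6 toc34 and 6 WT arrays. Replicates 1 to 6 run from left to right within a genotype, with mean and SD beside them. The genotypes do not overlap for any gene. As a ratio of the closest arrays the margin is widest for NTRC, where toc34 stays between 0.116 and 0.166 and WT between 0.355 and 0.596.

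Among all tested spots these differences were large but not rare. A more negative difference than that of PRK was found for 10.9% of tested spots, and than that of NTRC for 4.19%. For PPDK, 12.4% of tested spots had a more positive one. The median over all tested spots was -0.05. On the deposited scale, with no normalization, the log2 differences were -1.26 for PRK, -1.69 for NTRC and 0.94 for PPDK, while the median of all spots was -0.20. Relative to that median they were -1.06, -1.49 and 1.14, close to the values of -1.08, -1.52 and 1.09 found relative to the median after quantile normalization.

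The size of the difference varied among the arrays for PRK and PPDK, and less for NTRC. The normalized log2 difference of PRK was -0.51 between the arrays numbered 1 and 2, -1.30 between those numbered 3 and 4, and -1.58 between those numbered 5 and 6. For PPDK the differences in these subsets were 1.68, 0.92 and 0.53. In size, the subset with the smallest PRK difference thus had the greatest PPDK difference and the reverse. With their signs, the differences of PRK and PPDK both declined from the first subset to the last. NTRC had -1.76, -1.56 and -1.39. In the toc34 arrays, the mean normalized log2 level of PRK was 0.51 in replicates 1 and 2, against -0.23 in 3 and 4 and -0.07 in 5 and 6. In the WT arrays PRK was highest in replicates 5 and 6, at 1.51, and lay at 1.01 and 1.07 in the other subsets. PPDK in WT was lowest in replicates 1 and 2, at -2.48, with -2.07 and -1.86 in the others.

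Neighbouring arrays were not always close for a single gene. PPDK differed by 1.01 on the log2 scale between toc34 replicates 3 and 4, and PRK by 0.77 between WT replicates 3 and 4. For NTRC no neighbouring arrays differed by more than 0.26. With neighbouring numbers as a random block (consensus correlation 0.54), 22.6% of spots were past the limma threshold and all 3 genes were among them. With neighbouring arrays averaged to 3 values per genotype 12.3% of spots were past it, and of the 3 genes NTRC alone was among them. In fits of 2 arrays per genotype, NTRC and PPDK but not PRK passed within replicates 1 and 2, where 28.6% of spots did. Within replicates 3 and 4 NTRC alone passed (29.4% of spots), and within 5 and 6 PRK and NTRC but not PPDK passed (20.9% of spots). Each of these subset fits rests on neighbouring arrays that may be repeats, so its error may hold technical spread alone. The same limit applies to the subset fits of other genes given below.

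**Figure D2:**
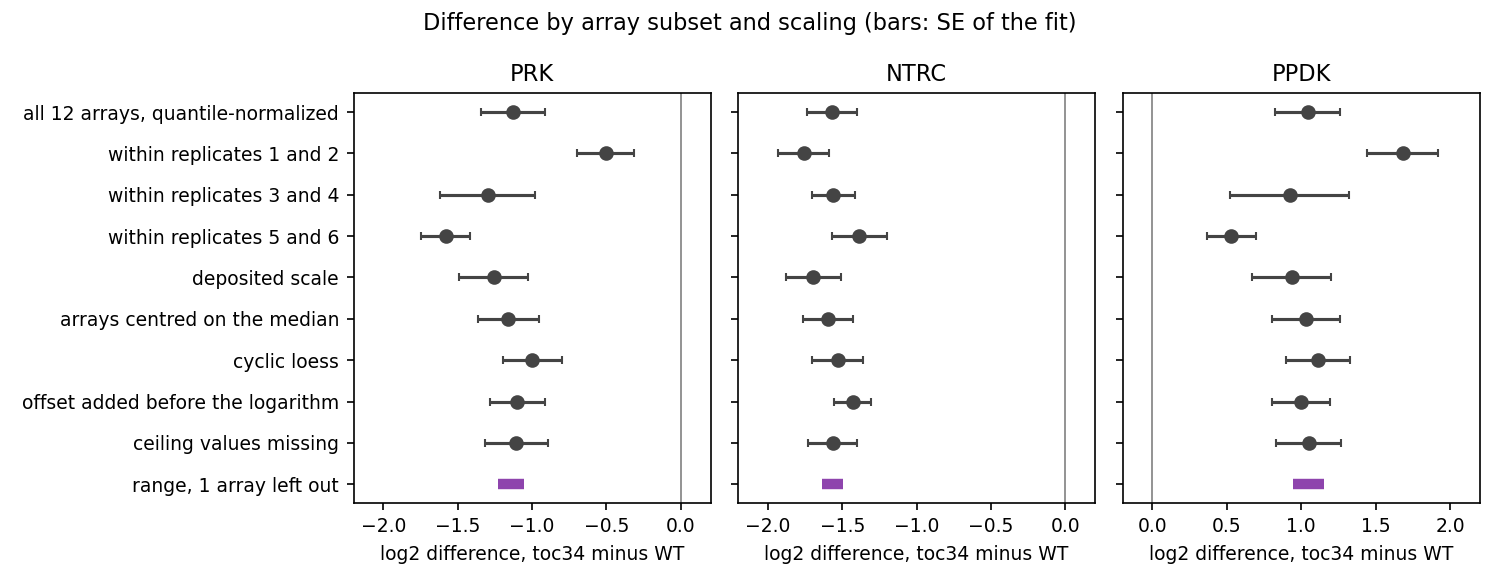
Log2 difference, toc34 minus WT, of PRK, NTRC and PPDK over all arrays, within subsets of neighbouring replicate numbers and under other scalings, with the SE of the fit as bars. Values are normalized except on the deposited scale. The lowest line spans the differences with 1 array left out. PRK and PPDK move between subsets (-0.51 to -1.58 and 1.68 to 0.53) more than between scalings, and no value crosses 0.

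A ratio of spots on the same array is free of that array's overall scale. Each ratio is given relative to its WT mean, so that it shows unequal change and no difference in level between genes. PPDK over PRK had log2 ratios of 1.89, 2.18, 2.95, 1.85, 2.16 and 2.15 on toc34 replicates 1 to 6, and lay between -0.36 and 0.33 in WT. All toc34 arrays exceeded all WT arrays by at least 1.52. That separation was fixed by the choice of genes, since PPDK was higher and PRK lower on every toc34 array than on any WT array. The size of the ratio joins these known differences and is no further evidence of them. The toc34 mean was 2.19 ± 0.40 against a WT spread of 0.24 (SD, n = 6 arrays each), or a 4.58-fold shift between the genes. The genotype difference of this ratio was 2.096 for numbers 1 and 2, 2.414 for 3 and 4 and 2.075 for 5 and 6.

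PPDK over NTRC shifted by 2.63 ± 0.43 in toc34 (SD, n = 6 arrays), with values from 2.23 to 3.39, and ran from -0.84 to 0.64 in WT. Its lack of overlap was likewise fixed by the choice of genes. This ratio differed more between subsets, by 3.38, 2.75 and 1.75 in the same order of subsets. NTRC over PRK overlapped between the genotypes, at -0.68 to -0.07 in toc34 and -0.52 to 0.77 in WT. Its genotype difference turned sign between subsets, with -1.29 for numbers 1 and 2, -0.34 for 3 and 4 and 0.33 for 5 and 6. The arrays therefore do not separate the 2 decreases in size.

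**Figure D3:**
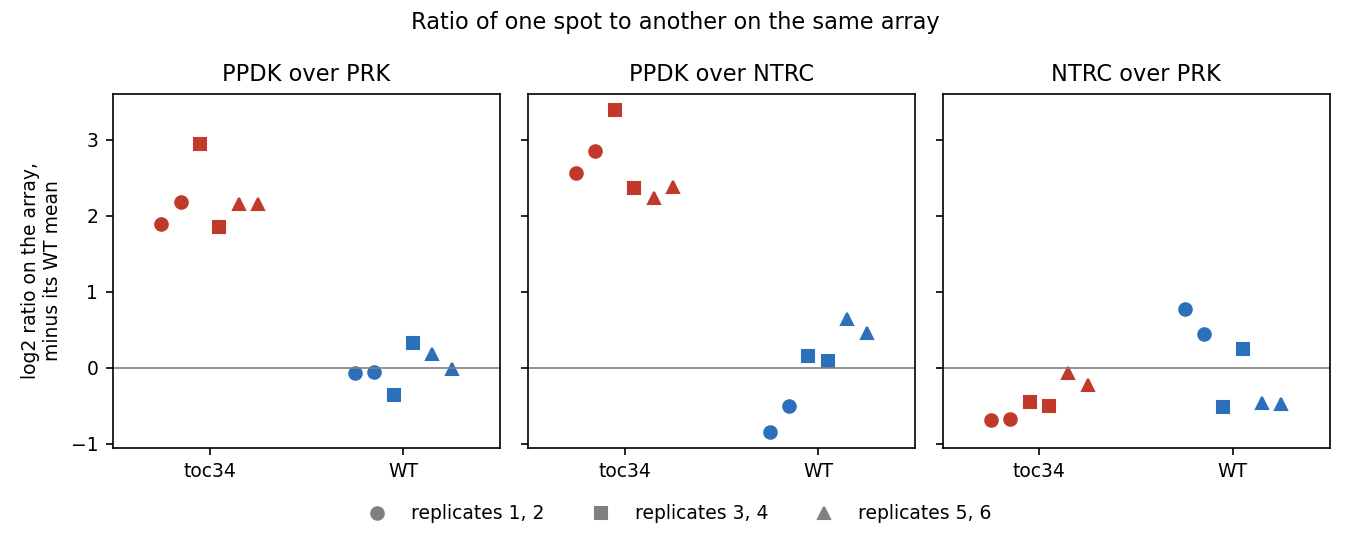
Log2 ratio of one spot to another on the same array, minus the WT mean of that ratio, for 6 toc34 and 6 WT arrays. PPDK over PRK lies between 1.85 and 2.95 on toc34 arrays and close to 0 on WT arrays, while NTRC over PRK overlaps between the genotypes.

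Other enzymes of stromal carbon and redox metabolism were looked up on 10 lists of 176 nuclear genes, covering the Calvin cycle, plastid redox, pyruvate and phosphoenolpyruvate, starch, photorespiration, pentose phosphates, fatty acids, the shikimate pathway, isoprenoid precursors with branched-chain amino acids, and protein import. Besides PRK, NTRC and PPDK, 10 of these genes had a spot of their own and 7 were tested. Of the 7, 1 fell and 0 rose, and 6 did not pass the test, where 18.9% of all tested spots fell and 17.2% rose. Their median log2 difference was -0.11, against -0.05 over all tested spots. Roles of genes given here by locus alone come from the lists and not from the array annotation.

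In the Calvin cycle, SBPASE, the sedoheptulose bisphosphatase that acts in the regeneration phase before PRK, was listed at 0 on all arrays except 1 toc34 array, where it had 0.0096. It could not be compared. LrgB (AT1G32080), the plastid glycolate and glycerate transporter of photorespiration, was listed at 0 on all arrays except 1 WT array, and the transaldolase AT1G12230 was listed at 0 on all 12.

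In plastid redox, AT2G04700, the catalytic subunit of the ferredoxin-thioredoxin reductase that passes electrons from light-reduced ferredoxin to thioredoxins, had intensities of 0.117 to 0.235 in toc34 (median 0.169) and 0.0979 to 0.254 in WT (median 0.208). The ranges overlapped, and the log2 difference was -0.11 (SE 0.26, limma adjusted p = 0.772), from -0.32 without WT replicate 4 to -0.012 without WT replicate 5. AT5G58330, the NADP-dependent malate dehydrogenase that exports reducing power from the stroma, had 0.143 to 0.209 in toc34 (median 0.156) and 0.154 to 0.192 in WT (median 0.168). Its log2 difference was 0.05 (SE 0.14, limma adjusted p = 0.797) and its sign turned on the deposited scale (-0.06). Leaving out toc34 replicate 6 gave 0.014, and leaving out toc34 replicate 3 gave 0.13. AT3G52960, the type II peroxiredoxin of the chloroplast, was dim, at 0.0292 to 0.127 in toc34 and 0.0158 to 0.0724 in WT, with a log2 difference of 0.39 (SE 0.39, limma adjusted p = 0.476). That difference was 0.098 without WT replicate 4, 0.18 without toc34 replicate 3 and 0.042 with cyclic loess. A spot annotated to 3 plastid thioredoxins of the x and y types together averaged 0.244 ± 0.108 in toc34 and 0.180 ± 0.0280 in WT (SD, n = 6 arrays each), a log2 difference of 0.41 (SE 0.26, limma adjusted p = 0.236).

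Among the pathways that draw on plastid pyruvate and phosphoenolpyruvate, AT3G23940, the dihydroxyacid dehydratase of branched-chain amino acid synthesis, fell in toc34. It had 0.0692 to 0.198 in toc34 (median 0.154) and 0.210 to 0.329 in WT (median 0.267), a log2 difference of -0.75 (SE 0.25, limma adjusted p = 0.0345), or 1.68-fold lower. The deposited values did not overlap, whereas the normalized ones did. This call ended without toc34 replicate 3 (limma adjusted p = 0.0655), 4 (0.0609) or 5 (0.0531), without WT replicate 2 (0.069), 4 (0.0589) or 6 (0.0781), with neighbouring arrays as a random block (0.229), with them averaged (0.0954), within replicates 1 and 2 (-0.42, adjusted p = 0.324) and within 5 and 6 (-1.01, adjusted p = 0.318). AT3G58610, the ketol-acid reductoisomerase one step earlier in that pathway, had 0.524 to 1.04 in toc34 and 0.583 to 1.08 in WT, with a log2 difference of 0.26 (SE 0.19, limma adjusted p = 0.295) that was 0.16 without toc34 replicate 1. It passed within replicates 1 and 2, at 0.91 (limma adjusted p = 0.0335), and had the opposite sign within 3 and 4, at -0.22 (0.384).

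In plastid fatty acid synthesis, AT1G24360, the ketoacyl-ACP reductase, had 0.0251 to 0.215 in toc34 (median 0.152) and 0.139 to 0.266 in WT (median 0.244). Its log2 difference of -0.91 had an SE of 0.45 and did not pass the test (limma adjusted p = 0.137). It passed without toc34 replicate 5, at -1.17 (limma adjusted p = 0.0486), and within replicates 3 and 4, at -0.65 (0.0488), whereas without toc34 replicate 6 the difference was -0.56 (0.237). FATB, the thioesterase that releases saturated fatty acids, had 0.0482 to 0.171 in toc34 and 0.107 to 0.197 in WT, with a log2 difference of -0.38 (SE 0.28, limma adjusted p = 0.317) that was -0.18 without toc34 replicate 2. A spot shared by 2 hydroxyacyl-ACP dehydratases had a log2 difference of -0.14 (SE 0.20, limma adjusted p = 0.617), and a further spot of the same 2 genes was mostly at 0 and not tested. For the shikimate pathway, which starts from phosphoenolpyruvate, a spot shared by 2 EPSP synthase genes had 0.46 (SE 0.38, limma adjusted p = 0.363). No single-gene spot was found for starch, for protein import or for the other enzymes of the phosphoenolpyruvate list.

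**Figure D4:**
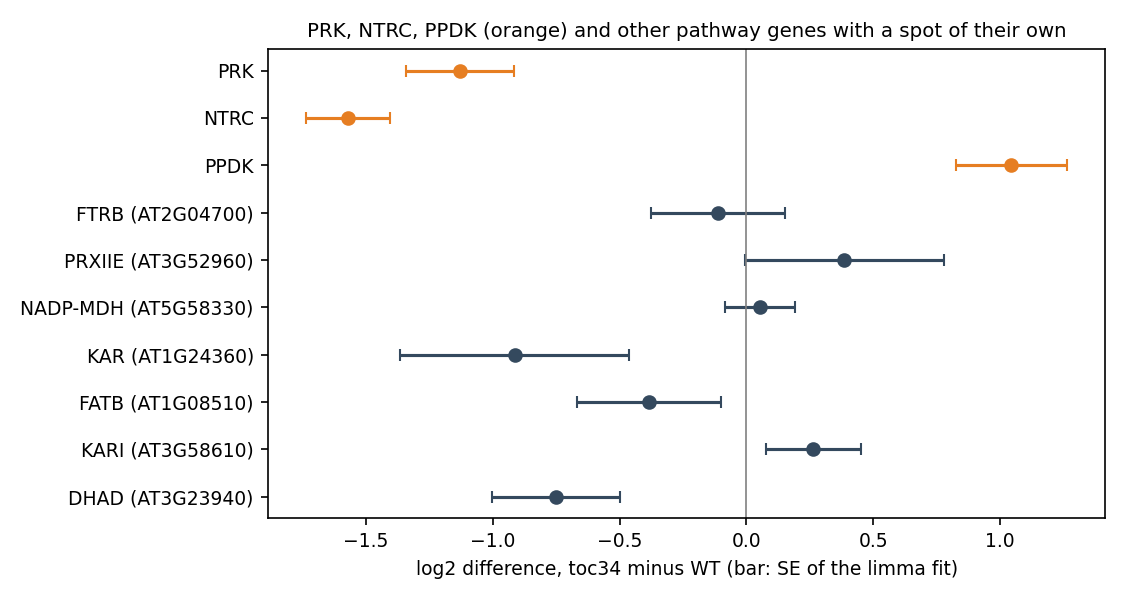
Log2 difference, toc34 minus WT, with the SE of the limma fit, for PRK, NTRC and PPDK (orange) and the 7 tested genes of related pathways with a spot of their own. Of the 7, DHAD (AT3G23940) at -0.75 passed the test, and the other 6, between -0.91 and 0.39, did not.

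The single-gene spots that followed each enzyme most closely were sought among the other 477 spots measured on all 12 arrays, by Pearson correlation of normalized log2 values. The genotypes separate on PRK, NTRC and PPDK, so this correlation mostly carries the genotype difference, and the correlation of deviations from the genotype means is given beside it. Both are descriptions over 12 arrays that share scale and possibly source. Spots were picked on the correlation over 12 arrays, which includes the deviations from the genotype means. A high value within the genotypes may thus in part be due to that choice. No background of such values over the 477 spots is given.

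For NTRC the closest spots were PSBY (r = 0.97), a photosystem II subunit, AT4G13550 (0.97), AT3G47650 (0.96) and RAP74 (0.96), a subunit of the general transcription factor TFIIF. Within the genotypes these correlations were 0.47, 0.59, 0.64 and 0.52. The log2 differences of these 4 spots were -1.41, -1.69, -1.35 and -1.37, near the -1.57 of NTRC.

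For PRK the closest were AT1G01080 (r = 0.92), AT5G53920 (0.90), AT3G16310 (0.90) and AT2G46050 (0.90), with 0.75, 0.50, 0.76 and 0.60 within the genotypes. Their log2 differences were -0.92, -1.23, -1.22 and -0.72. NTRC itself had an r of 0.84 with PRK over the 12 arrays and of 0.03 within the genotypes.

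For PPDK the closest were SECE1 (r = 0.94), a subunit of the plastid Sec translocase, AT2G23070 (0.91), which RefSeq names as a plastid casein kinase 2 alpha subunit, AT2G41950 (0.88) and AT3G09490 (0.87). SECE1 also followed PPDK within the genotypes (0.88), where the other 3 had 0.69, 0.47 and 0.69. The log2 difference of SECE1 was 0.63, and those of the other 3 were 1.21, 1.47 and 1.08. PPDK and PRK, which differed in opposite directions between the genotypes (r = -0.58 over the 12 arrays), had a positive correlation of 0.55 within them. PPDK and NTRC had -0.84 over the 12 arrays and -0.17 within the genotypes.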

How the data were processed

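Total RNA was measured on 6 toc34 and 6 WT arrays, and genotype and replicate number were read from the sample titles. Whether any arrays share an RNA sample is not stated. The deposited values are intensities that behave as a linear scale with a ceiling. The authors' labelling, scanning, background subtraction and scaling are not given in the sources used here; a background subtraction could set dim spots to 0. Values of 0 were taken as missing. Array medians of log2 differed by 0.50, over the 0.2 allowed, so log2 values were quantile-normalized. Spots with at least 4 measured values per genotype (2768 of 3439) were fitted with lmFit and eBayes of limma 3.58.1 (R 4.3.3, statmod 1.5.0), with Benjamini-Hochberg adjustment at 0.05 over all of them. Log2 differences are toc34 minus WT. Means with SD use deposited intensities. The number of arrays limits the precision, and the values carry no depth. The fit was also run on simulated data in which all arrays were independent, so it was not tested for arrays that may be repeats.

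Genes were named from the 2016 platform annotation through a RefSeq table (TAIR10.1), which matched 690 of 692 single-gene spots. Coordinates are left out because the array's build was not named. Members and lists were chosen with earlier results of these data known. Named were the 3 enzymes, every list gene with a spot of its own, and the 4 closest spots per enzyme. As a check of pairing, the deviations of a toc34 and a WT array with the same number were correlated across spots. The correlations were 0.13 to 0.27, each over the 0.1 required, so replicate numbers were taken to pair the arrays on the evidence of the values alone and a blocked fit was added. In all, 26 alternatives (scalings, filters, blocks and subsets) were run.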

Additional observations from a re-analysis of the deposited data

Results flagged for a closer look

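In 20 groups of 6 arrays, those of PRK, NTRC, PPDK and the 7 tested list genes in each genotype, 1 held an array far from the rest, where chance gives about 1. AT5G58330, the NADP-dependent malate dehydrogenase, had a ratio of gap to range of 0.654 in toc34, above the critical 0.625. Its toc34 replicate 3 lay at a normalized log2 intensity of -2.98 (deposited intensity 0.143), and the other 5 arrays lay between -2.59 and -2.38. No group of PRK, NTRC or PPDK passed this ratio.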

How the results depend on the processing

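Of the 26 alternatives, 6 change only the error or the other spots fitted and leave the log2 differences of PRK, NTRC and PPDK as they were. Under the other 20, 56 of 60 values moved by less than 1 SD between arrays and 0 changed sign, a direction that genotypes without overlap fix in most of these fits. The exceptions were PRK within replicates 1 and 2 (-0.51) and within 5 and 6 (-1.58), and PPDK within 1 and 2 (1.68) and within 5 and 6 (0.53); the cause was not tested. With 1 array left out they ran from -1.23 to -1.06 (PRK), -1.64 to -1.50 (NTRC) and 0.95 to 1.15 (PPDK). The replicate block left them at -1.13, -1.57 and 1.04 (SE 0.23, 0.15 and 0.24). It gave 1010 spots past the threshold against 997, of which 914 were shared. No call of PRK, NTRC, PPDK or the tested list genes changed. Every toc34 array correlated best with the WT array of its own number. The count of 997 fell to 625 (317 higher, 308 lower) with the random block, 359 (185 and 174) averaged and 558 (290 and 268) within replicates 5 and 6, where averaging and subsets leave fewer values, and was 872 to 1001 with 1 array left out. Of the list genes, 1 passed in the main fit, 0 with the random block, averaged or within 5 and 6, 2 within 3 and 4, and 0 to 1 with 1 array left out; limma at an unadjusted p under 0.05 counted 0, 2 and 1 genes in the settings with 0 calls just named, and 1 in each leave-out with 0 calls. Signs turned for AT3G52960 (-0.11 within 1 and 2), AT2G04700 (0.29), AT5G58330 (-0.14) and AT3G58610 (-0.22) within 3 and 4, FATB (0.47) within 5 and 6 and AT5G58330 (-0.0586) on the deposited scale. Values near 0 limit the dim genes.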
